A study of Mus musculus with 15 samples.

Results

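The 9 genes that build or tune cardiac potassium channels followed here through 15 mouse heart libraries were Kcnj12, Kcnj2, Kcnj3, Kcnj11, Kcnd2, Kcnip2, Kcnq1, Kcnh2 and Kcna5. They were chosen by name from the channels that set repolarization in heart muscle, with no threshold on their values, and sodium channel genes are described only as a comparison list. All 9 were found, among 12391 genes with a value in every library, through 15 annotated transcripts. The hearts came from male C57BL/6 mice in 3 groups of 5 mice. Control mice had neither agent, as far as the labels say. AngII mice had received AngII, the vessel-narrowing hormone angiotensin II. Mice of the third group had received AngII and QDG, a treatment known here only by that abbreviation, and are called AngII+QDG. AngII was therefore common to both treated groups, no group had QDG alone, and the ages, doses and durations were not stated in the labels. The stated purpose of the series was to find which genes differ in expression between the groups. The comparisons with Control share the Control libraries, and both comparisons with AngII share the AngII libraries.

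A heart muscle cell ends its action potential by letting potassium flow out, and different channels carry that current at different moments. Inward rectifier channels (the KCNJ family) hold the resting potential, open to G proteins, or open when ATP falls. Voltage-gated channels carry the early transient outward current, the ultrarapid current and the rapid and slow delayed rectifier currents. In mouse ventricle the transient outward and other fast currents dominate repolarization, and pressure overload or neurohormonal stress is known for lowering several of them in rodent hearts.

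The channels share a pore. The codons of the selectivity filter (glycine, then tyrosine or phenylalanine, then glycine) were located in the pore-forming members. The 45-base stretches of 7 of them, from the GENCODE M21 coding sequences, 5′ to 3′ with the 3 codons in capitals, show what these members have in common; Kcnip2, a calcium-binding accessory subunit, has no pore.
Kcnj2: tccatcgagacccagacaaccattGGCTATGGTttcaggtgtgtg
Kcnj3: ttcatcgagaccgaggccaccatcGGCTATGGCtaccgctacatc
Kcnj11: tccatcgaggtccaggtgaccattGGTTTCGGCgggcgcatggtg
Kcnd2: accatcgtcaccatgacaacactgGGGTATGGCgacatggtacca
Kcnq1: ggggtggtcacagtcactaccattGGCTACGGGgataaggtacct
Kcnh2: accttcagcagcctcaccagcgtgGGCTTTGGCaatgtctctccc
Kcna5: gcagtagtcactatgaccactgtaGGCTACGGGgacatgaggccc
Kcnj11 and Kcnh2 carry phenylalanine codons in the middle, and the other 5 shown carry tyrosine codons. The 4 KCNJ members are a family within the set, and Kcnj12 and Kcnj2 were the closest pair, with 72.5% of aligned coding bases identical. Their longest identical run was 17 bases, and no 50-base window of the Kcnj12 transcript occurred in a transcript of another gene. For Kcnj2 0.241% of windows did. Reads of the pair could therefore be told apart at that length.

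The values are FPKM (fragments per kilobase of transcript, scaled to the size of the library), summed over the listed transcripts of a gene, so levels of different genes can be compared per length. Low values were whole multiples of a smallest unit. Taking that unit as a single fragment put the depth at about 51610000 to 78330000 fragments per library. Behind a member's value stood a median of 420 fragments for Kcnj3 to 8637 for Kcnj11. Control libraries differed from the others in a library-wide way. Their balance of short (under 1000 bases) against long (at least 3000 bases) transcripts was 1.24 ± 0.19 log2 units (SD, n = 5), with AngII at 0.87 ± 0.07 and AngII+QDG at 0.83 ± 0.10, and was highest in Control 3 (1.46) and Control 5 (1.42). Control 5 also listed 16.0% of transcripts at 0, where the other 14 libraries listed 2.51 to 8.78%, and 16 genes at 0 that had at least 5 FPKM in every other library. Results are therefore also given without Control 3 and Control 5. Heart muscle markers were abundant throughout: 9 of 9 were present, none was at 0, and their summed level spanned 29993 to 40167 FPKM for Control, 31617 to 34944 for AngII and 23605 to 40735 for AngII+QDG. These are whole-tissue RNA values, in which fewer cells of a type and less RNA per cell cannot be told apart.

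Kcnj12 and Kcna5 rose in AngII hearts against Control, and Kcnj12, Kcna5 and Kcnd2 rose in AngII+QDG hearts against Control. No member fell. Between AngII+QDG and AngII no member was called. The test was limma on log2(FPKM + 1) over 12267 genes, with Benjamini-Hochberg adjustment and a threshold of 0.05, and every log2 difference and standard error (SE) below is on that scale unless said otherwise. In AngII against Control, 2 of 9 members were called higher, beside 11.9% of all genes, and 0 lower, beside 1.48%. In AngII+QDG against Control, 3 of 9 were called higher, beside 16.0%, and 0 lower, beside 3.31%. In AngII+QDG against AngII, 0 members were called in either direction, beside 0.0% of genes higher and 0.0% lower. The median difference of the 9 was 0.38, 0.24 and -0.14 in that order, and that of all tested genes was 0.20, 0.18 and -0.02.

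**Figure D1:**
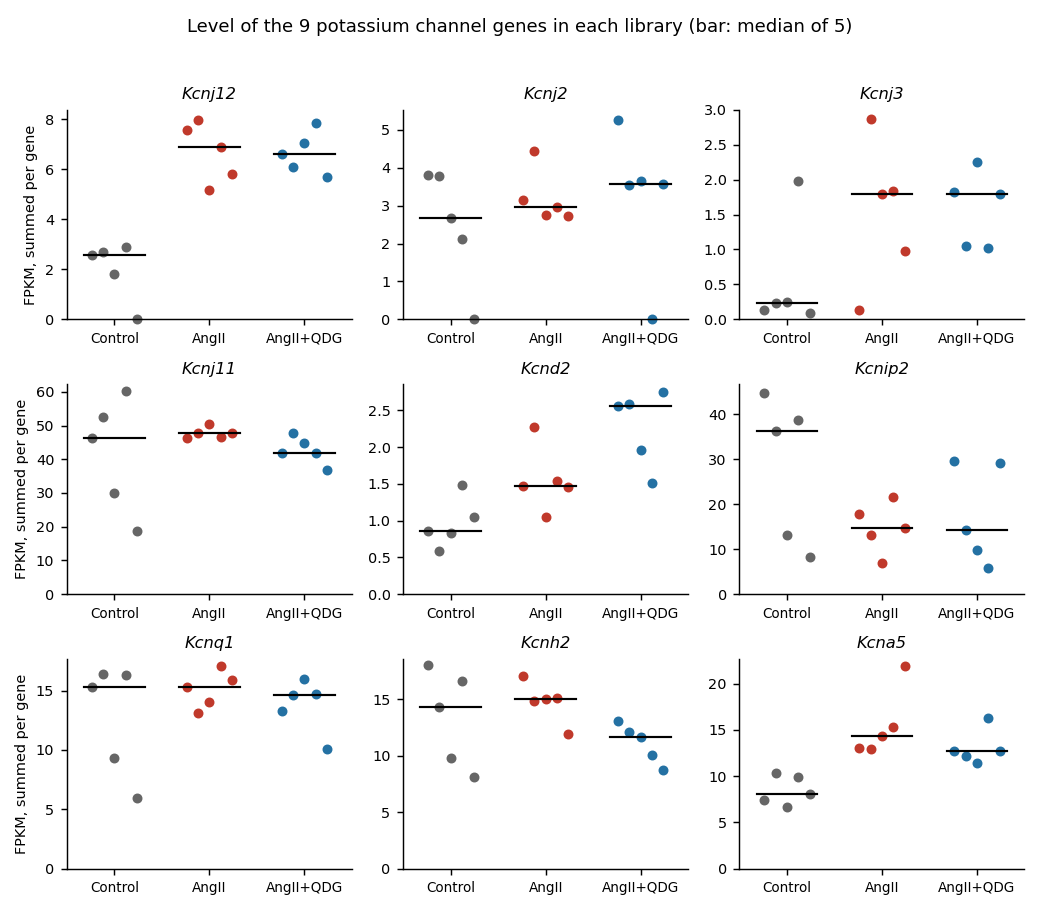
FPKM summed per gene (y axis, starting at 0) of the 9 members in each library, in 3 groups of 5 on the x axis, with a bar at the group median. Control values of Kcnj12 and Kcna5 lie below both treated groups, those of Kcnd2 lie below AngII+QDG, and Kcnip2 is widely spread within groups.

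The members differed widely in level. Kcnj11 had the highest median in every group, at 46.2 FPKM (Control), 47.8 (AngII) and 41.9 (AngII+QDG), and in both treated groups its libraries did not overlap those of the next gene. Kcnip2 came next in Control at 36.3, with values that overlapped those of Kcnj11. Kcnq1, Kcnh2 and Kcna5 followed in Control at 15.3, 14.3 and 8.06, each overlapping its neighbour. Then came, without overlap with Kcna5, Kcnj2 at 2.68 and Kcnj12 at 2.59, which overlapped each other, and last Kcnd2 at 0.86 and Kcnj3 at 0.23. In AngII, Kcnq1, Kcnh2, Kcnip2 and Kcna5 lay between 14.3 and 15.3 and each overlapped the next. Kcnj12 at 6.88 stood below them and above Kcnj2 at 2.97 with no overlap on either side, and Kcnj3 (1.79) and Kcnd2 (1.47) came last. In AngII+QDG the order after Kcnj11 was Kcnq1 at 14.6, Kcnip2 at 14.3, Kcna5 at 12.7, Kcnh2 at 11.7, Kcnj12 at 6.62, Kcnj2 at 3.56, Kcnd2 at 2.56 and Kcnj3 at 1.80. There Kcnj12 again overlapped neither the gene above it nor the gene below it.

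Kcnj12 encodes Kir2.2, a strong inward rectifier that helps to hold the resting potential. The gene lies on chromosome 11 at 61022564 to 61071131 on the plus strand (GRCm38), and its single listed transcript, Kcnj12-202, is protein coding with 2 exons. Kcnj12 stood at 2.59, 2.68, 1.83 and 2.89 FPKM in Control 1 to 4 and was listed at 0 in Control 5. It stood at 7.57, 7.99, 5.17, 6.88 and 5.81 in AngII 1 to 5, and at 6.62, 6.09, 7.04, 7.87 and 5.68 in AngII+QDG 1 to 5. Every treated library was above every Control library. Kcnj12 rose by 1.49 ± 0.30 (SE) in AngII against Control (adjusted p = 0.0138) and by the same 1.49 ± 0.30 in AngII+QDG against Control (adjusted p = 0.0058). Control 5 also listed 16 genes at 0 that had at least 5 FPKM in every other library. Kcnj12, lower in the other Control libraries, is not one of them. Whether its 0 is a failed estimate was not tested. Without Control 5, the other 4 Control libraries averaged 2.49 ± 0.46 FPKM (SD, n = 4), and the differences were 1.13 ± 0.14 (adjusted p = 0.00249) and 1.14 ± 0.14 (adjusted p = 0.00188). Leaving out Control 3 as well gave 1.03 and 1.04 (adjusted p = 0.00993 and 0.00587). Between AngII+QDG and AngII the libraries overlapped and the difference was 0.00 ± 0.30 (adjusted p = 0.999).

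Kcnj2 encodes Kir2.1, the main pore of the same inward rectifier current, and lies on chromosome 11 at 111066164 to 111076821 on the plus strand. Kcnj2 stood at 3.81, 3.80, 2.68 and 2.11 FPKM in Control 1 to 4 and was listed at 0 in Control 5. It stood at 3.15, 4.44, 2.75, 2.97 and 2.73 in AngII hearts, and at 5.27, 3.55, 3.65, 0.0142 and 3.56 in AngII+QDG. The low value in AngII+QDG 4 equals 4 fragments, and apart from that library and Control 5 the 3 groups covered much the same range. The differences were 0.45 ± 0.48 in AngII against Control (adjusted p = 0.541), 0.24 ± 0.48 in AngII+QDG against Control (adjusted p = 0.756) and -0.21 ± 0.48 between the treated groups (adjusted p = 0.998). Without Control 5 the second of these was -0.16, and without AngII+QDG 4 the third was 0.25.

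The ratio of Kcnj12 to Kcnj2 within a library is little affected by a scaling of the whole library. On the log2 scale with a pseudocount of 0.1, it was -0.54, -0.49, -0.53, 0.43 and 0.00 in Control 1 to 5, the last from a pair of zeros. It was 1.24, 0.83, 0.89, 1.18 and 1.06 in AngII hearts, and 0.32, 0.76, 0.93, 6.13 and 0.66 in AngII+QDG. Kcnj12 was thus the higher of the pair in every treated library and the lower one in 3 of the 4 Control libraries with values above 0. All 5 AngII libraries lay above all 5 Control libraries, a difference of 1.27 (exact two-sided permutation test, p = 0.00794, the smallest the design allows, adjusted p = 0.0952 over 12 tests). Without Control 5 it was 1.32 (exact permutation, adjusted p = 0.0317). With 4 Control libraries the smallest p the design allows is still 0.00794. The unadjusted p was therefore no lower, and only the adjustment over the 12 tests changed. For AngII+QDG against Control the difference was 1.98 (exact permutation, p = 0.0159, adjusted p = 0.0952), and 0.89 without AngII+QDG 4 (exact permutation, adjusted p = 0.133). Between the treated groups it was 0.72 (exact permutation, p = 0.984).

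Kcnj3 encodes GIRK1, a subunit of the channel through which vagal signals slow the heart, strongest in atria and pacemaker tissue, and lies on chromosome 2 at 55435970 to 55598145 on the plus strand. It was low: 0.128, 0.231, 0.241, 1.98 and 0.0948 FPKM in Control hearts, 0.136, 2.86, 1.79, 1.83 and 0.97 in AngII hearts, and 1.82, 1.05, 2.26, 1.03 and 1.80 in AngII+QDG. Control 4 stood with the treated libraries and AngII 1 with the other Control libraries, so the groups overlapped. The differences were 0.72 ± 0.32 in AngII against Control (adjusted p = 0.144), 0.85 ± 0.32 in AngII+QDG against Control (adjusted p = 0.0794) and 0.13 ± 0.32 between the treated groups (adjusted p = 0.998). Without Control 4 the first 2 were 0.99 (adjusted p = 0.0266) and 1.12 (adjusted p = 0.0121), and without AngII 1 the adjusted p of the second was 0.0454. Of its transcripts, Kcnj3-202 was listed at 0 in 4 Control, 2 AngII and 3 AngII+QDG libraries, and at 1.03 to 1.50 in the others. Kcnj3-201, the longer coding transcript, stood at 0.0948 to 0.77 in Control, 0.136 to 1.36 in AngII and 0.79 to 1.80 in AngII+QDG. The AngII libraries overlapped both other groups. Exons of Gm26794 on the opposite strand cover 31.1% of Kcnj3-201, and the library kit named in the labels is not stated to keep strand, so reads of the pair cannot be told apart there.

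Markers of atrial muscle varied beside it. Of 6 such genes 4 were present, none at 0, and none was called in any comparison. Their summed level was 171 to 476 FPKM in Control hearts, 265 to 774 in AngII hearts and 214 to 437 in AngII+QDG hearts. Nppa alone averaged 297, 479 and 333 FPKM in these groups, so the sum mostly follows that gene. Myl7, the atrial myosin light chain, was 5.60 FPKM in Control 1 and 1.46 in Control 4, the library with the high Kcnj3, and its part in the Kcnj3 values was not tested. Kcnj5, which encodes GIRK4, the partner of GIRK1 in one channel, was 4.90, 0.95, 0.44, 1.47 and 1.01 FPKM in Control hearts, 9.17, 8.78, 5.74, 3.06 and 7.17 in AngII hearts, and 12.4, 3.90, 6.15, 7.52 and 4.28 in AngII+QDG. Control 1 overlapped with both treated groups. Kcnj5 rose by 1.61 ± 0.38 in AngII (adjusted p = 0.0212) and by 1.60 ± 0.38 in AngII+QDG (adjusted p = 0.0109) against Control. Neither call held without Control 3 and Control 5, at 1.28 (adjusted p = 0.115) and 1.26 (adjusted p = 0.0752), and the first did not hold without AngII 2 (adjusted p = 0.057), in a fit of the 2 groups alone (adjusted p = 0.0507) or with the length trend removed (adjusted p = 0.0651).

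Kcnj11 encodes Kir6.2, the pore of the channel that opens when ATP falls, and lies on chromosome 7 at 46093953 to 46100764 on the minus strand. Its level was 46.2, 52.5, 29.9, 60.2 and 18.8 FPKM in Control hearts, 46.3, 47.8, 50.5, 46.5 and 47.9 in AngII hearts, and 41.9, 47.7, 44.8, 41.8 and 36.8 in AngII+QDG. AngII libraries lay close together, while Control 3 and Control 5 were the lowest of all 15. The differences were 0.31 ± 0.23 in AngII against Control (adjusted p = 0.377), 0.14 ± 0.23 in AngII+QDG against Control (adjusted p = 0.706) and -0.17 ± 0.23 between the treated groups (adjusted p = 0.998), and without Control 3 and Control 5 the first 2 were -0.14 and -0.30. One single-exon coding transcript, Kcnj11-205, made up 89.6% ± 1.93 of the gene's FPKM in Control hearts, 91.4% ± 2.95 in AngII hearts and 88.4% ± 2.35 in AngII+QDG hearts (SD, n = 5 each). Abcc9, the sulphonylurea receptor subunit that surrounds this pore, stood at 6.02 to 20.1 FPKM in Control hearts, 11.1 to 16.6 in AngII hearts and 5.60 to 24.3 in AngII+QDG hearts, and its ratio to Kcnj11 gave an adjusted p of 0.984 in each of the 3 exact permutation tests.

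Kcnd2 encodes Kv4.2, a pore of the fast transient outward current, and spans chromosome 6 from 21215503 to 21729805 on the plus strand in 6 exons. Its level was 0.86, 0.59, 0.83, 1.48 and 1.05 FPKM in Control hearts, 1.47, 2.27, 1.04, 1.54 and 1.46 in AngII hearts, and 2.56, 2.58, 1.96, 1.52 and 2.75 in AngII+QDG. Every AngII+QDG library was above every Control library, the closest being AngII+QDG 4 at 1.52 and Control 4 at 1.48, and AngII libraries overlapped with both groups. Kcnd2 rose from 0.96 ± 0.33 FPKM in Control to 2.27 ± 0.52 in AngII+QDG (SD, n = 5 each), a ratio of means of 2.36 and a log2 difference of 0.74 ± 0.16 (adjusted p = 0.00755). The difference was 0.38 ± 0.16 in AngII against Control (adjusted p = 0.115) and 0.36 ± 0.16 in AngII+QDG against AngII (adjusted p = 0.998), so neither step on its own passed the test. Without Control 4 the first of these did (0.47, adjusted p = 0.0492).

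Kcnip2 encodes KChIP2, the calcium-binding partner that brings Kv4 channels to the membrane, and lies on chromosome 19 at 45791839 to 45816061 on the minus strand. Its level was 44.7, 36.3, 13.2, 38.7 and 8.31 FPKM in Control hearts, 17.9, 13.2, 6.83, 21.5 and 14.8 in AngII hearts, and 29.6, 14.3, 9.88, 5.86 and 29.2 in AngII+QDG. Control 1, 2 and 4 were the 3 highest libraries of the series, but Control 3 and Control 5 lay among the treated ones. The differences were -0.72 ± 0.50 (adjusted p = 0.341) for AngII and -0.62 ± 0.50 (adjusted p = 0.415) for AngII+QDG against Control. With Control 3 and Control 5 left out they were -1.45 (adjusted p = 0.11) and -1.35 (adjusted p = 0.0841). Between the treated groups the difference was 0.10 ± 0.50 (adjusted p = 0.998).

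The wide range of Kcnip2 lay mostly in one transcript that the annotation calls a retained intron, not in the coding ones. That transcript, Kcnip2-204, stood at 35.1, 30.8, 1.79, 31.8 and 1.56 FPKM in Control hearts, 9.29, 7.15, 2.09, 14.3 and 9.42 in AngII hearts, and 20.8, 7.76, 4.25, 2.05 and 22.7 in AngII+QDG. The main coding transcript, Kcnip2-209, stood at 7.98, 4.90, 10.002, 5.94 and 6.05 FPKM in Control hearts, 7.25, 5.37, 4.20, 6.58 and 4.69 in AngII hearts, and 7.11, 6.17, 4.91, 3.44 and 5.90 in AngII+QDG. The coding values overlapped between the groups, and Control 3, low for the gene as a whole, had the highest of them. Kcnip2-209 differed by -0.26 ± 0.21 in AngII (adjusted p = 0.481 over 21550 transcripts) and by -0.29 ± 0.21 in AngII+QDG (adjusted p = 0.415) against Control. A change in the share of unspliced RNA and a change in mature RNA cannot be told apart from the summed gene value.

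The log2 ratio of Kcnip2 to Kcnd2 set the summed gene value of the partner against that of the pore. That sum includes the retained-intron transcript, so the ratio is not one of coding RNA alone. The main coding transcript overlapped between the groups, and its own ratio to Kcnd2 was not tested. The ratio of the summed values was 5.54, 5.72, 3.83, 4.62 and 2.87 in Control hearts. It was 3.51, 2.49, 2.60, 3.72 and 3.25 in AngII hearts, and 3.48, 2.42, 2.28, 1.88 and 3.36 in AngII+QDG. The first 4 Control libraries lay above all treated ones, and Control 5 lay among the treated ones. Kcnip2 transcripts of 1203 to 3114 bases were set against a Kcnd2 transcript of 5152 bases. A within-library ratio does not remove the balance of short and long transcripts, which differed between Control and treated libraries. Its part in this ratio was not tested. Against Control the ratio differed by -1.40 in AngII (exact two-sided permutation test, p = 0.0556, adjusted p = 0.167) and by -1.83 in AngII+QDG (exact permutation, p = 0.0317, adjusted p = 0.127). Without Control 5 the differences were -1.81 and -2.24, both with an adjusted p of 0.0317 by exact permutation. Between the treated groups the difference was -0.43 (exact permutation, p = 0.27).

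**Figure D2:**
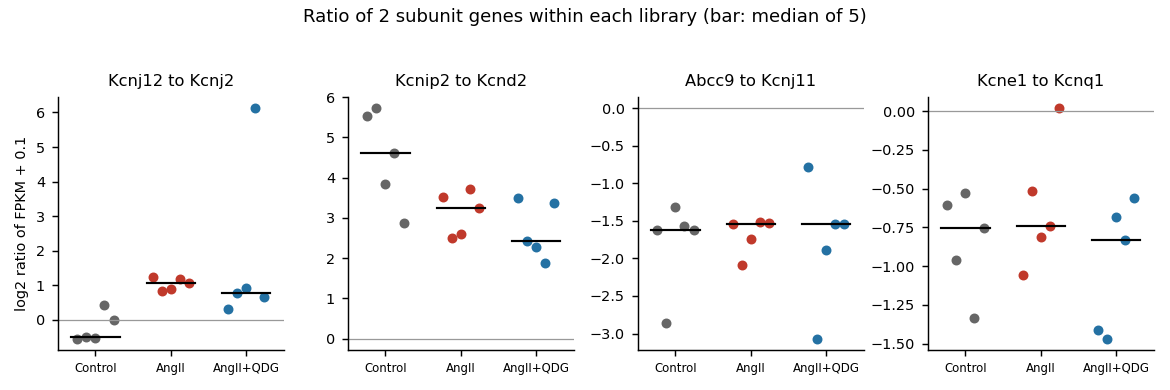
Log2 ratio of 2 genes within each library (y axis, FPKM + 0.1) for 4 pairs of subunit genes, in 3 groups of 5 with a bar at the median. AngII libraries of the Kcnj12 to Kcnj2 ratio sit between 0.83 and 1.24, above Control, and AngII+QDG 4 at 6.13 is the library with 4 fragments of Kcnj2.

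Kcna5 encodes Kv1.5, the pore of the ultrarapid potassium current, in one exon on chromosome 6 at 126532551 to 126535412 on the minus strand, and 2.81% of its 50-base windows also occur in Gm26673 or Kcna6. Its level was 7.40, 10.4, 6.64, 9.88 and 8.06 FPKM in Control hearts, 13.0, 13.0, 14.3, 15.3 and 21.9 in AngII hearts, and 12.7, 12.2, 11.4, 16.3 and 12.7 in AngII+QDG. Every treated library was above every Control library, and the treated groups overlapped. Kcna5 rose from 8.47 ± 1.60 FPKM in Control to 15.5 ± 3.69 in AngII (SD, n = 5 each), a ratio of means of 1.83 and a log2 difference of 0.79 ± 0.16 (adjusted p = 0.0135). In AngII+QDG it was 13.1 ± 1.90 FPKM, a ratio of 1.54 to Control and a log2 difference of 0.58 ± 0.16 (adjusted p = 0.0212). Between the treated groups the difference was -0.22 ± 0.16 (adjusted p = 0.998). Leaving out Control 3 and Control 5 gave differences from Control of 0.68 (adjusted p = 0.0612) and 0.46 (adjusted p = 0.101), with neither call kept. The second call was also lost without Control 3 alone (adjusted p = 0.0531) or without AngII+QDG 4 (adjusted p = 0.0525).

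Kcnq1 encodes the pore of the slow delayed rectifier current and lies on chromosome 7 at 143106362 to 143427042 on the plus strand. Its level was 15.3, 16.4, 9.33, 16.3 and 5.95 FPKM in Control hearts, 15.3, 13.1, 14.1, 17.1 and 15.9 in AngII hearts, and 13.3, 14.6, 16.01, 14.7 and 10.1 in AngII+QDG. As for Kcnj11, Control 3 and Control 5 were the lowest of the 15, and the other 13 libraries lay between 10.1 and 17.1. The differences were 0.32 ± 0.22 in AngII against Control (adjusted p = 0.346), 0.18 ± 0.22 in AngII+QDG against Control (adjusted p = 0.608) and -0.14 ± 0.22 between the treated groups (adjusted p = 0.998). On leaving out Control 3 and Control 5 the first 2 were -0.08 and -0.22. Kcne1, its accessory subunit, had 6.95 ± 2.46 FPKM in Control hearts, 10.1 ± 3.52 in AngII hearts and 7.02 ± 2.10 in AngII+QDG hearts (SD, n = 5 each), and the ratio of Kcne1 to Kcnq1 gave no adjusted p under 0.476 in the 3 exact permutation tests. Exons of Kcnq1ot1 on the opposite strand cover 3.99% of the Kcnq1 transcript.

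Kcnh2 encodes ERG1, the pore of the rapid delayed rectifier current, and lies on chromosome 5 at 24319589 to 24351604 on the minus strand. Its level was 18.1, 14.3, 9.77, 16.7 and 8.10 FPKM in Control hearts, 17.0, 14.8, 14.98, 15.1 and 11.96 in AngII hearts, and 13.1, 12.1, 11.7, 10.03 and 8.76 in AngII+QDG. Of the 5 AngII libraries 4 lay above all AngII+QDG libraries, and Control spanned both. The differences were 0.18 ± 0.19 in AngII against Control (adjusted p = 0.531), -0.38 ± 0.19 in AngII+QDG against AngII (adjusted p = 0.998) and -0.20 ± 0.19 in AngII+QDG against Control (adjusted p = 0.492). The last was -0.52 and called without Control 3 and Control 5 (adjusted p = 0.0377), as it was with each library scaled to the same median (-0.51, adjusted p = 0.0234) and with each library's trend with transcript length removed (-0.52, adjusted p = 0.0339).

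Kcnh2 had 2 listed transcripts. The longer, Kcnh2-201, has 15 exons and stood at 14.2, 9.06, 5.71, 12.4 and 0.605 FPKM in Control hearts, 10.8, 11.8, 10.7, 12.1 and 9.18 in AngII hearts, and 10.5, 9.43, 7.95, 7.10 and 6.66 in AngII+QDG. The shorter, Kcnh2-202, starts within the gene at base 24329591, has 11 exons and stood at 3.89, 5.22, 4.06, 4.28 and 7.49 FPKM in Control hearts, 6.24, 3.02, 4.32, 3.09 and 2.77 in AngII hearts, and 2.58, 2.71, 3.74, 2.94 and 2.10 in AngII+QDG. In Control 5 alone the short transcript was the higher one. Kcnh2-201 made up 56.4% ± 28.5 of the gene's FPKM in Control hearts, 74.1% ± 6.94 in AngII hearts and 74.5% ± 5.05 in AngII+QDG hearts (SD, n = 5 each). Kcnh2-202 differed by -0.63 ± 0.21 in AngII+QDG against Control (adjusted p = 0.0719 by limma over transcripts).

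**Figure D3:**
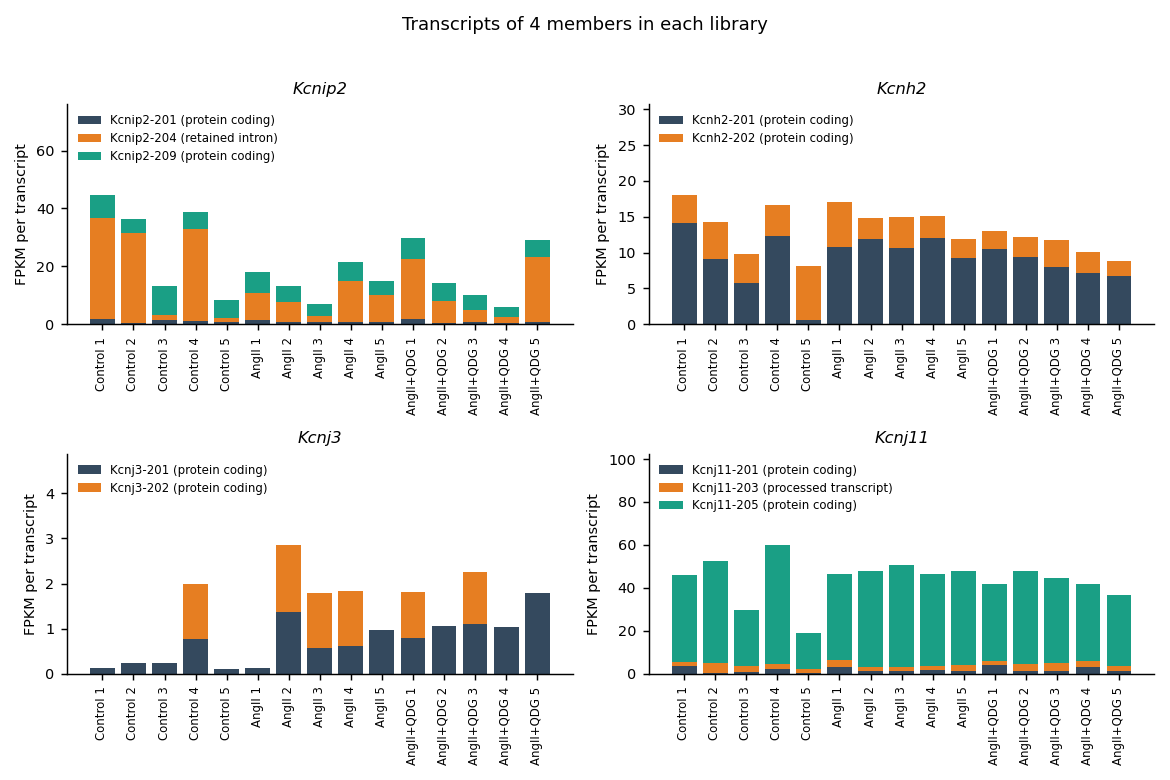
Stacked FPKM of the listed transcripts (y axis, starting at 0) of Kcnip2, Kcnh2, Kcnj3 and Kcnj11 in each of the 15 libraries. The retained-intron transcript Kcnip2-204 reaches 35.1 FPKM in Control 1 and 1.56 in Control 5, and Kcnh2-201 stands at 0.605 in Control 5.

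At the level of transcripts, 2 of the 15 member transcripts were called in AngII against Control, Kcnj12-202 (adjusted p = 0.025) and Kcna5-201 (adjusted p = 0.0246), both higher. Of all 21550 transcripts tested, 3.07% were called higher and 0.404% lower in that comparison. In AngII+QDG against Control 4 were called, all higher: Kcnj12-202 (adjusted p = 0.0123), Kcnd2-201 (adjusted p = 0.0189), Kcnj3-201 (0.74 ± 0.20, adjusted p = 0.0335) and Kcna5-201 (adjusted p = 0.0405). The background there was 7.58% higher and 1.42% lower. Both counts were 1 without Control 3 and Control 5. In AngII+QDG against AngII no member transcript was called, beside 0.0% of transcripts higher and 0.0% lower.

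For AngII+QDG against AngII, the comparison that adds QDG to AngII, the 9 differences ran from -0.38 (Kcnh2) to 0.36 (Kcnd2), and 1 member, Kcnd2, had an unadjusted p under 0.05. Among all 12267 genes limma called 0 there, 578 had an unadjusted p under 0.05, and limma voom on recovered fragments called 1. Standard errors ran from 0.16 (Kcna5 and Kcnd2) to 0.50 (Kcnip2).

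**Figure D4:**
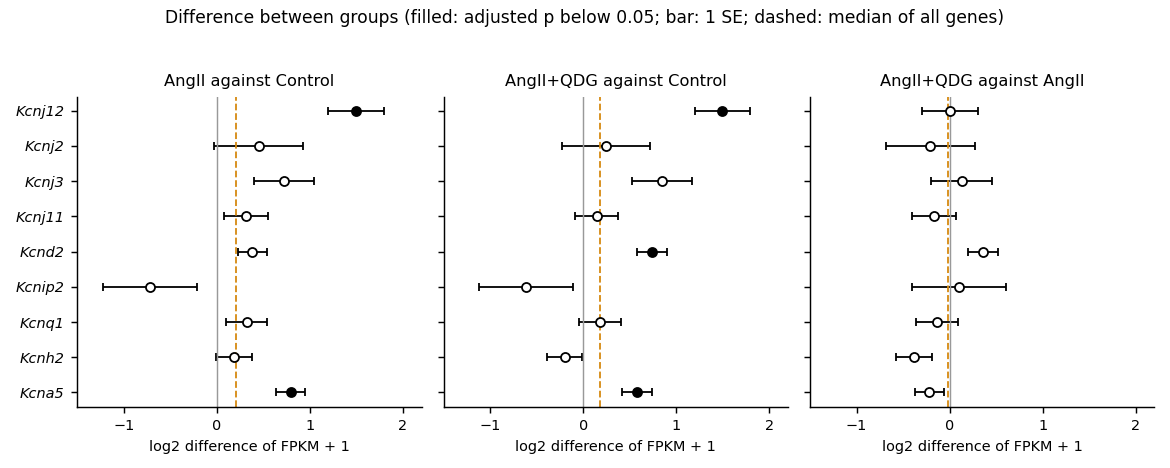
Log2 difference of FPKM + 1 (x axis) with 1 SE for the 9 members in 3 comparisons, filled where the adjusted p was below 0.05, and a dashed line at the median of all genes. Filled points are Kcnj12 and Kcna5 in AngII against Control and Kcnj12, Kcnd2 and Kcna5 in AngII+QDG against Control.

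How firmly the calls stood differed between the genes. Most of the genes called in AngII against Control were higher there, 1457 against 181 lower, but with each library scaled to the same median the split was 456 higher and 889 lower, and with quantile normalization 406 and 413. For AngII+QDG against Control the split was 1968 and 406, then 992 and 1704, then 983 and 999. Kcnj12 stayed called under both scalings in both comparisons. Kcna5 lost its call with median scaling, at 0.49 (adjusted p = 0.0512) in AngII and 0.27 (adjusted p = 0.214) in AngII+QDG, and with quantile normalization in AngII+QDG (0.40, adjusted p = 0.0648). Kcnd2 in AngII+QDG lost it with quantile normalization (0.47, adjusted p = 0.0651) and with the length trend removed (0.36, adjusted p = 0.16), where Kcna5 also lost both (adjusted p = 0.0535 and 0.114). With the balance of short and long transcripts as a covariate, which separates Control from the treated groups, no gene of the 12267 was called against Control, and Kcnj12 was 0.63 and 0.54 higher (adjusted p = 0.915 and 0.736). In limma voom Kcnj12 missed the threshold (3.39 in both comparisons, adjusted p = 0.0822 and 0.0742), with the 0 of Control 5 in the fit. The differences of Kcnj11, Kcnq1 and Kcnh2 from Control, none called as deposited, changed sign under one or more of these settings.

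**Figure D5:**
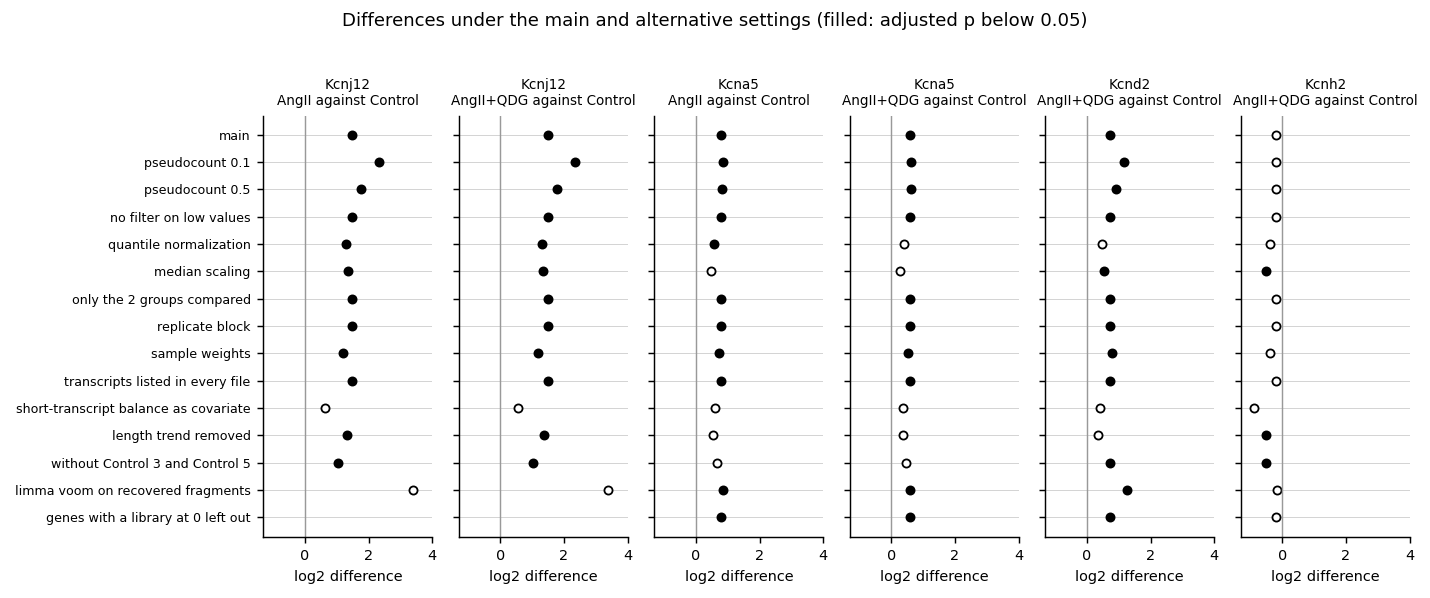
Log2 difference (x axis) of 4 members under the main setting and the alternatives (y axis), filled where the adjusted p was below 0.05. Kcnj12 is open with the balance covariate and in limma voom, and has no point where genes with a library at 0 were left out, Kcna5 and Kcnd2 are open under several settings, and Kcnh2 is filled under 3.

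Kcna5 and Kcnd2, both higher in AngII+QDG, also have RefSeq entries whose start lies near that of the listed transcript, 143 bases away for Kcna5 and 157 for Kcnd2. Their 300-base windows around the RefSeq start (250 bases before it and 50 after) follow as 5′ to 3′ sequence of the gene's strand, GRCm38.p6, with motif matches in capitals: Kcna5 at chr6:126535506-126535805, minus strand, and Kcnd2 at chr6:21215096-21215395, plus strand.
Kcnd2: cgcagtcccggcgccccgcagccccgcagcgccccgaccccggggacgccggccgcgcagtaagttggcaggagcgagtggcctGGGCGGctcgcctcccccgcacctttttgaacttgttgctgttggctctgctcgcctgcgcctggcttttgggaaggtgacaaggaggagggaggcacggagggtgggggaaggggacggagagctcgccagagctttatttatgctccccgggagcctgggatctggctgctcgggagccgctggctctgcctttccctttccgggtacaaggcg
Kcna5: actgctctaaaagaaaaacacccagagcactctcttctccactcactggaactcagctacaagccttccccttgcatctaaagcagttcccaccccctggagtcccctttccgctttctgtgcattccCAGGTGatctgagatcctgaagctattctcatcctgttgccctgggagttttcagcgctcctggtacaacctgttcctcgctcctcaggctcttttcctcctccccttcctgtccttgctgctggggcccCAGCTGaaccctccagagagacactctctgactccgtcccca
The motifs searched on both strands were a TATA box (letters TATAAA), a GC box (letters GGGCGG), an E-box (letters CANNTG), an AP-1 site (letters TGANTCA) and a GATA site (letters AGATAA). None of them overlapped another in these windows. The Kcna5 window held 2 E-boxes, at -122 and 9 from the start, and the Kcnd2 window held 1 GC box, at -166. Of 32851 RefSeq promoters of the same length, 72.3% held an E-box, 35.7% a GC box, 13.6% a TATA box, 7.81% an AP-1 site and 11.2% a GATA site. For Kcnj12 the RefSeq start lies 43240 bases from that of the listed transcript, and the Kcnj11 and Kcnq1 promoters were not analysed here.

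Of 42 other potassium channel subunits on the list 12 were tested. In AngII against Control 2 rose, beside 11.9% of all genes, and 0 fell. Kcnj5 alone rose in AngII+QDG against Control, beside 16.0%, and 0 fell. With median scaling Kcnj8 and Kcnk3 were called lower in AngII+QDG, a split of 1 higher and 2 lower, and with the length trend removed Kcnk3 was. The 2 in AngII were Kcnj5, above, and Kcnk6, a leak channel, which went from 0.77 ± 0.24 to 1.51 ± 0.41 FPKM (SD, n = 5 each), a log2 difference of 0.50 ± 0.14 (adjusted p = 0.0346). Kcnk6 lost its call under 8 other settings, among them without Control 3 and Control 5 (0.38, adjusted p = 0.165), and on leaving out any of 6 single libraries, Control 1, 3 and 5 and AngII 2, 4 and 5 (adjusted p = 0.0512 to 0.0819). Kcnk3, another leak channel, had 79.8 ± 16.8 FPKM in Control hearts, 87.4 ± 0.89 in AngII hearts and 74.6 ± 8.08 in AngII+QDG hearts (SD, n = 5 each). Its libraries did not overlap between the treated groups, and that difference was -0.23 ± 0.13 (adjusted p = 0.998). Of 17 accessory subunits 7 were tested and none was called; Kcne4 (0.25, adjusted p = 0.146) and Kcne1 (0.50, adjusted p = 0.192) had the smallest p in AngII against Control.

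Of 14 sodium channel subunits 3 were tested and none was called. Scn4b, a beta subunit, stood at 4.20 ± 1.61 FPKM in Control hearts, 4.43 ± 1.22 in AngII hearts and 6.53 ± 1.24 in AngII+QDG hearts, a difference of 0.58 ± 0.22 from Control in AngII+QDG (adjusted p = 0.0732). Scn7a (0.34, adjusted p = 0.314) had the smallest p in AngII against Control. Of 5 tested partners of the sodium channel, Ranbp2, a nuclear pore protein on that list, rose in AngII (0.74 ± 0.17, adjusted p = 0.019) and, with Gpd1l (0.61 ± 0.19, adjusted p = 0.0377), in AngII+QDG (1.01 ± 0.17, adjusted p = 0.00282) against Control. Those counts, 1 and 2 higher with 0 lower, stand beside 11.9% and 16.0% of all genes called higher. The Gpd1l call was lost on leaving out Control 3 or any of the AngII+QDG libraries (adjusted p = 0.0574 to 0.0913), and that of Ranbp2 in AngII without AngII 2 (adjusted p = 0.0535). With both Control 3 and Control 5 out the counts were 0 and 1, Ranbp2 in AngII+QDG. The pacemaker channels Hcn2 and Hcn4 were not called in any comparison.

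Among 14 tested scaffold, anchor and trafficking genes, 4 rose in AngII hearts and 7 in AngII+QDG hearts against Control, beside 11.9% and 16.0% of all genes, and none fell. The split turned with the scaling. With median scaling 1 rose (Sntb1) and 1 fell (Ank2) in AngII, and 3 rose (Dlg1, Lin7c and Sntb2) and 2 fell (Ank2 and Cav3) in AngII+QDG. With quantile normalization 0 were called in AngII, and 3 rose and 1 fell (Cav3) in AngII+QDG; with the length trend removed the counts were 0, and 2 higher. Flna (filamin A), Lin7c, Sntb1 and Sntb2 (syntrophins) were the 4, with log2 differences of 0.64, 0.63, 0.45 and 0.49 (adjusted p = 0.0172, 0.0187, 0.0222 and 0.0311). In AngII+QDG the smallest p belonged to Lin7c (0.88, adjusted p = 0.00244), Flna (0.57, adjusted p = 0.0132), Dlg1, which encodes SAP97, a scaffold for Kir2 and Kv channels (1.57, adjusted p = 0.0164), and Dmd, dystrophin (0.87, adjusted p = 0.0222). With Control 3 and Control 5 out the counts were 0 and 2, Lin7c and Dlg1 in AngII+QDG. Single left-out libraries ended calls of Sntb2 (7 libraries, adjusted p = 0.0507 to 0.0741), Sntb1 (AngII 4 or AngII 5, adjusted p = 0.0554 and 0.0543), Lin7c in AngII (AngII 2, adjusted p = 0.0535) and Dmd (Control 3, AngII+QDG 1 or AngII+QDG 2, adjusted p = 0.0516 to 0.0572). Of 12 transcription factors known to act on channel genes, 0 were called in AngII against Control. Beside that, 11.9% of all genes were called higher and 1.48% lower. With median scaling 1, Nkx2-5, was called lower there. In AngII+QDG against Control 1 was called lower, beside 3.31% of all genes, and 0 higher, beside 16.0%. That factor, Nkx2-5, fell from 61.9 ± 8.77 to 46.6 ± 5.39 FPKM (SD, n = 5 each), a difference of -0.40 ± 0.11 (adjusted p = 0.0225). The Nkx2-5 call was lost without Control 2 (adjusted p = 0.0546) or AngII+QDG 5 (adjusted p = 0.0582), and with Control 3 and Control 5 out 2 factors were called lower, Nkx2-5 and Irx3. Irx5, a factor that acts on Kcnd2, stood at 2.75 ± 1.28, 3.09 ± 0.73 and 2.92 ± 0.51 FPKM in Control, AngII and AngII+QDG. No gene of these lists was called between AngII+QDG and AngII, where Dmd (0.74, adjusted p = 0.769) and Nkx2-5 (-0.31, adjusted p = 0.894) had the smallest adjusted p.

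Markers of other cells of the heart were measured beside the channels. In AngII against Control, 1 of 9 heart muscle markers rose, Ryr2 (1.00 ± 0.24, adjusted p = 0.0222), as did 1 of 6 smooth muscle and pericyte markers, Rgs5 (0.60 ± 0.18, adjusted p = 0.0408), with summed levels of the latter list of 132 to 239 FPKM in Control and 227 to 350 in AngII. Of all genes 11.9% were called higher in that comparison. In AngII+QDG against Control, 2 of 6 fibroblast markers rose, Pdgfra and Lum, with 1 of 6 endothelial markers, Kdr, and 1 of 6 macrophage markers, Mrc1. Hba-a2, 1 of 5 red blood cell markers, fell. Of all genes 16.0% were called higher there and 3.31% lower. With median scaling Pdgfra and Kdr stayed called higher in AngII+QDG, and Lum and Mrc1 lost their calls (adjusted p = 0.151 and 0.0677). Called lower there, beside Hba-a2, were Myl2 and Tnnc1 of heart muscle, Tie1 of endothelium, and Csf1r and C1qa of macrophages. In AngII with that scaling Ryr2 stayed called higher, Rgs5 lost its call (adjusted p = 0.181), and Myl2 was called lower. None of these cell type lists had a call without Control 3 and Control 5. Single left-out libraries also ended the calls of Ryr2 (2 libraries), Rgs5 (8), Kdr (5), Mrc1 (7) and Hba-a2 (4), with adjusted p from 0.0505 to 0.0962. Their part in the channel results was not tested.

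The genes whose pattern was most like that of each called member were found by Pearson's r over the 15 libraries, which share a depth, a scaling and a balance within each library. Kcnj12 was most like Rab1a (r = 0.976), Stard7 (r = 0.970) and Limch1 (r = 0.968), and after group means were taken out, Osbpl5 (r = 0.974), Igsf8 (r = 0.972) and Irf7 (r = 0.966). The 0 in Control 5 was the Kcnj12 value farthest from its group mean. How far these r values rest on that library was not tested. Kcna5 was most like Pls3 (r = 0.939), Rasgrf2 (r = 0.938) and Lrrc8c (r = 0.936), and after group means were taken out, Epas1 (r = 0.887), Flt1 (r = 0.873) and Ssr1 (r = 0.870). For Kcnd2 the closest was Dbt both before (r = 0.967) and after (r = 0.901) group means were taken out. Kcnq1 was closest to Itga7 (r = 0.972), Kcnj11 to Gsk3a (r = 0.965), Kcnj3 to Ckap5 (r = 0.963), Kcnj2 to Eno3 (r = 0.925), Kcnh2 to Slc41a3 (r = 0.891) and Kcnip2 to Qtrt1 (r = 0.814). These are descriptions of the closest of many genes and carry no test.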

How the data were processed

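Per the labels' protocols, heart RNA was taken up in Trizol, rRNA was removed, and a NEBNext Ultra kit gave the libraries. The 15 libraries were grouped by their labels, 5 per group, and p-values measure the spread between these samples. Per the submitters' processing notes, the build was GRCm38, and limma is among the tools listed. No source used here names the aligner. Transcript values deposited by the authors are taken to be FPKM. That unit was inferred from the values: multiplied by length they sum to nearly the same total in each library.

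Ensembl transcripts (24789) were named with GENCODE M21 (24756 matched) and summed to 12391 genes. Another 8634 assembled transcripts carry no gene name, so fragments assigned to them are missing from the gene values. FPKM times length in kilobases lay within 0.1 of a whole multiple of each library's step for 97.1 to 97.3% of transcripts above 0. No pair of libraries held identical values (0 pairs).

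A gene entered the test if 5 or more libraries reached 0.5 FPKM. The scale was log2(FPKM + 1), which understates the change of low genes, and the tool was limma 3.58.1 in R 4.3.3 (trend and robust variance). One model held the 15 libraries (12 residual degrees of freedom), and a call needed an adjusted p below 0.05. Transcripts were tested in the same way. Ratios were tested by exact permutation, two-sided, with 252 arrangements. The steps were tested on simulated data. Python 3.11.15, numpy 2.4.6, pandas 2.3.3, scipy 1.17.1, Biopython 1.88 and matplotlib 3.10.9 were used.

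The members and gene lists were chosen with earlier results of these data known. All members are named; of each other list, up to 4 called genes with the smallest p per comparison, or the 2 with the smallest p where none was called, were eligible to be named, and Abcc9, Kcnk3, Irx5, Irx3, Myl7, Kcnj5 and Kcne1 are given beside the members they relate to, chosen after values were seen. Alternatives covered pseudocounts, the filter, scaling, fits of 2 groups, a replicate block, weights, transcript sets, the short-transcript balance, the length trend, voom and left-out libraries. Leaving out genes with a library at 0 was added after seeing the data. Promoter windows are from RefSeq (GRCm38.p6), where 7 of 9 members matched.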

Additional observations from a re-analysis of the deposited data

Results flagged for a closer look

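In 4 of 27 groups of 5 libraries (9 genes in 3 groups), one library stood far from the others of its group by Dixon's test at 95%, and chance alone flags about 1 group in 20. Kcnj2 was 4.44 FPKM in AngII 2, where the other AngII libraries lay between 2.73 and 3.15. Kcnj3 was 1.98 FPKM in Control 4, where the other Control libraries lay between 0.0948 and 0.241, and the Kcnj3 differences from Control were called without that library. Kcna5 was 21.9 FPKM in AngII 5, with the others between 13.0 and 15.3, and 16.3 FPKM in AngII+QDG 4, with the others between 11.4 and 12.7. Both Kcna5 libraries lay farther from Control than the rest of their group.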

How the results depend on the processing

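Of 777 recomputed differences of single members, 697 were counted as the same. Those were uncalled ones that moved by at most 1 SE and called ones that stayed called, whatever their shift. Kcnj12, for one, stayed called while its difference shrank by more than 1 SE without Control 5. Another 55 uncalled ones moved by more than 1 SE, 18 lost a call and 7 gained one. Of called differences 0 changed sign. Against a count of 1638 genes called in AngII against Control, quantile normalization gave 819, fits of the 2 groups alone 317, the length trend removed 342, Control 3 and Control 5 left out 97, and the short-transcript balance as a covariate 0. Against 2374 in AngII+QDG against Control, the fit of 2 groups gave 1438, the length trend removed 1308, Control 3 and Control 5 left out 1199 and the covariate 0. For the 9 members in AngII against Control (2 called), median scaling, the length trend removed, Control 3 and Control 5 left out, voom and genes with a library at 0 left out each gave 1, the last because Kcnj12 was then not tested, and the covariate gave 0. For AngII+QDG against Control (3 called), quantile normalization gave 1 and the covariate 0. With median scaling, or with Control 3 and Control 5 left out, 3 were called, but Kcnh2, called lower, stood in place of Kcna5. With the length trend removed Kcnj12 was called higher and Kcnh2 lower. For member transcripts in AngII against Control (2 called), a pseudocount of 0.1 and Control 3 and Control 5 left out gave 1 and the 2-group fit 0; in AngII+QDG against Control (4 called), the 2-group fit gave 2 and Control 3 and Control 5 left out 1. For AngII+QDG against AngII (0 genes called), a pseudocount of 0.1, sample weights, the covariate and voom each gave 1. Apart from the cases with a stated cause, the cause was not tested.

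Leaving out each library in turn gave 316 to 2484 genes (316 without AngII 2, 2484 without Control 4), 2 to 4 members and 0 to 2 member transcripts (0 without Control 3 or AngII 4) in AngII against Control; 1452 (without AngII+QDG 1) to 3022 genes, 2 to 4 members and 1 (without AngII+QDG 1) to 4 member transcripts in AngII+QDG against Control; and 0 to 1 genes in AngII+QDG against AngII. The ratio of Kcnj12 to Kcnj2 differed by 1.19 to 1.43 in AngII and 0.89 to 2.34 in AngII+QDG, and that of Kcnip2 to Kcnd2 by -1.81 to -1.10 and -2.24 to -1.53. Replicate numbers did not pair the samples: over 15 same-numbered pairs the correlation of deviations from group means ran from -0.096 to 0.087, with 0 over 0.1. With the replicate number as a block 516 genes were called in AngII against Control, and 1 member transcript in each comparison with Control. Kcnj3, Kcnd2 and Kcnj12 were the members with the fewest fragments, with medians of 420, 555 and 931. How far depth limits their values was not tested.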
